A study of Mus musculus with 2 samples.

Results

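The 10 genes described here encode the vascular endothelial growth factors and their receptors, and comprise the ligands Vegfa, Vegfb, Vegfc, Vegfd (formerly Figf) and Pgf, the receptors Flt1, Kdr and Flt4, and the neuropilin co-receptors Nrp1 and Nrp2. They were chosen by gene symbol among 18194 genes, and 25 of the 45101 probe sets of the array are annotated to them, each to 1 of these genes alone. The transcripts of endothelial cells from the vessels of normal mouse brain (strain C57BL/6) were hybridized to Affymetrix Mouse Genome arrays, 1 for cells sorted as CD31+CD133+ (Prom1+ endothelium) and 1 for cells sorted as CD31+CD133- (Prom1- endothelium). CD31 marks endothelium, and CD133 is the protein encoded by Prom1. Both populations came from untreated tissue, and neither the age nor the number of the mice is stated in the sources read here. The study asked which paracrine factors Prom1+ endothelium produces, and these genes include growth factors of that kind.

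VEGF ligands are secreted dimers that drive the growth, survival and permeability of vessels. VEGF-A signals through VEGFR-1 (Flt1) and VEGFR-2 (Kdr), while VEGF-B and placental growth factor (Pgf) bind VEGFR-1. VEGF-C and VEGF-D are ligands of VEGFR-3 (Flt4) and, once processed, of VEGFR-2, and are best known for the growth of lymphatic vessels, which brain tissue itself lacks. Neuropilins bind both VEGFs and class 3 semaphorins and present the former to the receptors, Nrp1 mainly with VEGFR-2 and Nrp2 mainly with VEGFR-3.

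Vegfc, Vegfd and Nrp2 were more than 2-fold higher in the array labelled Prom1+, Pgf was at least 7.87-fold lower, and Vegfb, Flt1, Kdr, Flt4 and Nrp1 differed by less than 2-fold. Vegfa was under the floor of measurement on both arrays. Signals are given in array medians, that is as multiples of the median signal of the same array, and the floor was 1.67 array medians. A gene was represented by its brightest probe set. Each population has a single array, so no value has a replicate array and no test was made. The study reports that quantitative PCR bore out the difference of some of its factors, and its primer list includes Vegfc. Those PCR values were not among the sources read here. Of the 9 genes above the floor on at least 1 array, 3 (33.3%) were higher by 2-fold or more in the array labelled Prom1+, where 28.2% of all 10793 such genes were, and 1 (11.1%) was at least 2-fold lower, where 4.77% of all were. The count of higher genes is therefore near the background, and what follows describes single genes. The median log2 ratio of the 9 genes was 0.32, and that of all genes above the floor was 0.66.

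All 11 endothelial markers were above the floor on both arrays, and 10 of them differed by less than 2-fold, with a median log2 ratio of 0.24. The brightest were Cldn5, at 326 and 219 array medians in the arrays labelled Prom1- and Prom1+, Egfl7, at 198 on both, and Tek, at 192 and 169, and the exception was Erg, 2.01-fold higher at 15.7 and 31.5. Prom1, on whose protein the cells were sorted, did not separate the arrays, with 196 array medians in the one labelled Prom1- and 159 in the one labelled Prom1+. Its signal was 1.23-fold lower in the array labelled Prom1+, where the median ratio of like signals was 0.937. The transcript thus does not bear out the labels, and the arrays are named by their labels throughout. Were the labels exchanged, every direction given here would turn, and this was not tested. Among all probe sets measured on both sides, the median ratio was 1.58-fold in favor of the array labelled Prom1+, and it varied with signal, so the ratios of the VEGF genes, and those of the other pathway genes past 2-fold, are set beside the median ratio of their 1000 neighbors, the probe sets closest in mean signal. The only error these arrays give is technical. Within a gene, log2 ratios varied from probe set to probe set with an SD of 0.54 (3930 genes), and the spread between animals is unknown.

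**Figure D1:**
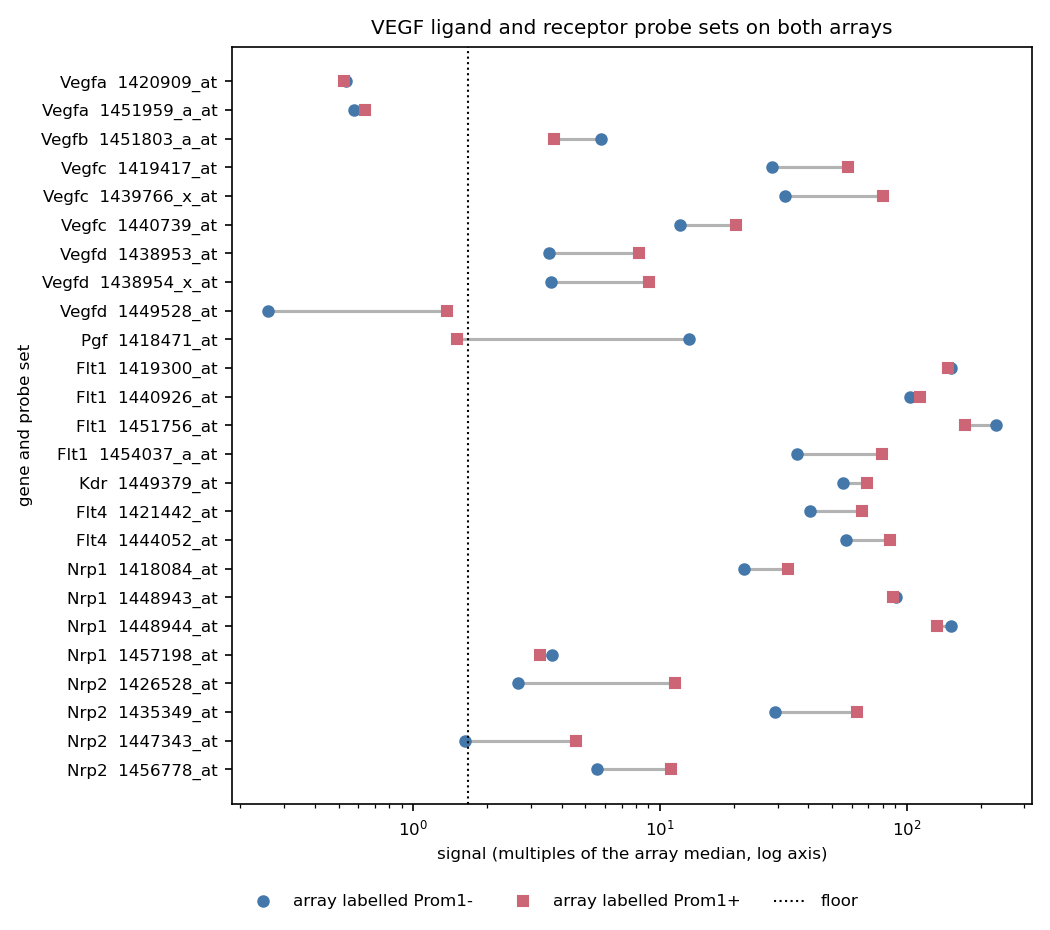
Signal of every probe set of the 10 genes in array medians (log axis) on the array labelled Prom1- (circles) and the array labelled Prom1+ (squares), with the floor of 1.67 as a dotted line. The squares lie to the right of the circles for every probe set of Vegfc, Vegfd, Flt4 and Nrp2, and far to the left for Pgf, while those of Vegfa lie close together under the floor.

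Among the ligands, Vegfc was measured by 3 probe sets, all higher in the array labelled Prom1+. Its brightest probe set (1439766_x_at) had 32.0 array medians in the array labelled Prom1- and 80.4 in the array labelled Prom1+, a 2.51-fold difference, while probe sets of like signal were 1.49-fold higher at the median. The second (1419417_at) had 28.6 and 57.8 array medians, 2.02-fold higher beside 1.59-fold for its neighbors in signal. The third (1440739_at) had 12.1 and 20.4, 1.69-fold higher beside 1.81-fold. So 2 of the 3 probe sets exceeded the shift of like signals and 1 did not, and their log2 ratios spanned 0.57, close to the median span of 0.59 over all genes with several measured probe sets.

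Vegfd, the ligand closest to Vegfc in sequence and receptor use, differed in the same direction. The probe set 1438954_x_at had 3.61 array medians in the array labelled Prom1- and 9.04 in the one labelled Prom1+, 2.50-fold higher beside 1.80-fold for like signals. The probe set 1438953_at had 3.56 and 8.20, 2.31-fold higher beside 1.82-fold. Around these 2 probe sets a difference of this size was common, since 41.8% and 42.6% of their neighbors in signal were at least 2-fold higher too. The third probe set of Vegfd (1449528_at), with 0.260 and 1.37 array medians, was under the floor on both arrays and gives no fold. For Vegfc the same share was 7.1% beside the brightest probe set, 16.3% beside the second and 38.9% beside the third.

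Placental growth factor moved the other way. Its single probe set (1418471_at) had 13.2 array medians in the array labelled Prom1- and 1.51, under the floor, in the array labelled Prom1+, so that Pgf was at least 7.87-fold lower there. Probe sets of like signal were 1.69-fold higher at the median, and 5.9% of them were at least 2-fold lower. The Vegfb transcript, whose protein shares VEGFR-1 with Pgf, was also lower by its single probe set (1451803_a_at), with 5.78 and 3.72 array medians, 1.55-fold, where like signals were 1.72-fold higher and 6.7% were at least 2-fold lower. With the hybridization controls set equal Vegfb turned to higher, at a log2 ratio of 0.42. By the brightest probe set of Vegfc, which also had its highest ratio, the ratios of Vegfc and Pgf were at least 19.8-fold apart. By the same probe set those of Vegfc and Vegfb were 3.90-fold apart. The third Vegfc probe set, at a log2 ratio of 0.76, lay closer to Vegfb, at -0.64. A common scaling of an array cannot change such a measure where both genes lie above the floor.

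Vegfa, the ligand that neurons and glia supply to brain vessels, was under the floor by both probe sets. They had 0.575 and 0.535 array medians in the array labelled Prom1- and 0.642 and 0.526 in the one labelled Prom1+. These values lie above the highest of the 27 Bacillus controls, whose targets are not mouse transcripts and which reached 0.276 and 0.234 array medians. No fold is given, and an absence of Vegfa is not shown.

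The starts of the 4 genes that differed by 2-fold are shown for their sequence context, 3 from genes with the higher signal in the array labelled Prom1+ and 1, Pgf, from a gene with the lower. Each sequence is the 250 bases before a RefSeq transcript start (build GRCm38.p6), 5′ to 3′ on the gene's strand, and capitals mark matches on either strand to the letters of a GC box (GGGCGG), the core bound by hypoxia-inducible factors (ACGTG, where the first letter may also be G), an AP-1 site (TGANTCA), the promoter element known as the TATA box (TATAAA) or an ETS site (GGAAGT).
Vegfc, chr8:54077282-54077531, + strand: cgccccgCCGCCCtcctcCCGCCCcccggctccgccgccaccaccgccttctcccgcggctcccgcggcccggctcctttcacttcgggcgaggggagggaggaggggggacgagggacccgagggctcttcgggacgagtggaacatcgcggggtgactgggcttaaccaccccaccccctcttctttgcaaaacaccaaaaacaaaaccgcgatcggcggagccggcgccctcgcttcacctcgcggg
Vegfd, chrX:164373272-164373521, + strand: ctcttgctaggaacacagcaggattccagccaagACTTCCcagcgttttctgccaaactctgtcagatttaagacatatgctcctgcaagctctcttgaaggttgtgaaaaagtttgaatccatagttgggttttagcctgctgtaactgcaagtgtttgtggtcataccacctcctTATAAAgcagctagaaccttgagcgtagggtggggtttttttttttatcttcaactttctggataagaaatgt
Nrp2, chr1:62703067-62703316, + strand: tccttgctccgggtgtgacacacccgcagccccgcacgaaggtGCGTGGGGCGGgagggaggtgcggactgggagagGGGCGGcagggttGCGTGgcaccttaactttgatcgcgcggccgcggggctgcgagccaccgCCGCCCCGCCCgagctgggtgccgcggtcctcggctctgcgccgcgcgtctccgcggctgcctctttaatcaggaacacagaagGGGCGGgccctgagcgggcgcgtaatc
Pgf, chr12:85177314-85177563, - strand: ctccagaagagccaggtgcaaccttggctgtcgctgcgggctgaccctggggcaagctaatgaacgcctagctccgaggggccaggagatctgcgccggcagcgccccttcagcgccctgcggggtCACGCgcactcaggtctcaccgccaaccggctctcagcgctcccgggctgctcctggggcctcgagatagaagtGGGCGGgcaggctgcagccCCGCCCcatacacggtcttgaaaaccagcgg

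The genes that were higher did not share one kind of start. The windows of Vegfc and Nrp2 were rich in G and C, at 71.6% and 72.4%, and held 2 and 5 GC boxes, some of them overlapping. That of Nrp2 held 2 hypoxia cores and that of Vegfc 0. The window of Vegfd had 42.4% G and C, no GC box, 1 TATA box beginning at position -73 from the start, and 1 ETS match. The window of Pgf had 68.4% G and C, 2 GC boxes and 1 hypoxia core. A second start of Pgf in RefSeq (chr12:85175983-85176232) held none of the 5 motifs, and none of the 4 printed windows held the AP-1 letters. Over all 32851 windows of this length the median was 52.4% G and C, and a GC box stood in 32.7%, a hypoxia core in 38.6%, an AP-1 site in 6.75%, a TATA box in 12.4% and an ETS match in 19.7%. A match describes the letters and does not show binding.

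Among the receptors, no gene differed by 2-fold. Kdr, which carries most of the mitogenic signal in endothelium, had 55.3 array medians in the array labelled Prom1- and 69.0 in the one labelled Prom1+ by its single probe set (1449379_at), 1.25-fold higher where like signals were 1.40-fold higher. Flt4, the receptor of VEGF-C and VEGF-D, was 1.52-fold higher by its brightest probe set (1444052_at), at 56.6 and 86.0 array medians, and 1.62-fold higher by the other (1421442_at), at 40.6 and 65.8. Both lay slightly above like signals, at 1.34-fold and 1.48-fold. The markers of lymphatic endothelium, in which Flt4 and Nrp2 are also used, were under the floor on both arrays for all 3 genes tested, Prox1, Lyve1 and Pdpn, at 0.276 to 0.870 array medians.

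The probe sets of Flt1, the VEGFR-1 gene, which yields both a membrane receptor and a soluble decoy by alternative transcript ends, disagreed. The brightest (1451756_at) had 229 array medians in the array labelled Prom1- and 172 in the array labelled Prom1+, 1.33-fold lower, where the median ratio of like signals was 0.937. The second (1419300_at), with 151 and 147, was 1.03-fold lower beside a median ratio of 0.965, and the third (1440926_at), with 103 and 113, was 1.09-fold higher beside 1.10-fold. The fourth (1454037_a_at) had 35.8 and 79.5 array medians and was 2.22-fold higher, beside 1.47-fold for like signals. Their log2 ratios spanned 1.56, against a median span of 0.99 over the 552 genes with 4 or more measured probe sets. Which transcript form each probe set reads was not examined, so a ratio of the Flt1 forms is not given.

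The neuropilins diverged. Nrp2, the partner of VEGFR-3, was higher in the array labelled Prom1+ by each of its 4 probe sets. The brightest (1435349_at) had 29.4 array medians in the array labelled Prom1- and 62.7 in the one labelled Prom1+, 2.13-fold higher beside 1.57-fold for like signals, of which 14.4% were at least 2-fold higher. The second (1426528_at), with 2.68 and 11.5, was 4.29-fold higher beside 1.81-fold for like signals, and the third (1456778_at), with 5.56 and 11.1, was 1.99-fold higher beside 1.76-fold. The fourth (1447343_at), with 1.63, just under the floor, and 4.58, was at least 2.73-fold higher beside 1.51-fold. All 4 lay above the median of like signals, but among the neighbors of the 3 dimmer probe sets 41.8%, 37.0% and 35.7% were at least 2-fold higher too.

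Nrp1, the partner of VEGFR-2, differed by less than 2-fold by each of its 4 probe sets. Its brightest probe set (1448944_at) had 151 and 133 array medians in the arrays labelled Prom1- and Prom1+, 1.14-fold lower where the median ratio of like signals was 0.977, and the second (1448943_at) had 90.9 and 87.9, 1.03-fold lower where like signals were 1.21-fold higher. The third (1418084_at), with 21.9 and 33.1, was 1.51-fold higher beside 1.71-fold, and the fourth (1457198_at), with 3.67 and 3.28, was 1.12-fold lower where like signals were 1.65-fold higher. All 4 lay below the median of like signals. In each of the 16 pairs of an Nrp2 and an Nrp1 probe set the ratio of Nrp2 was the higher one, and this also held for all 16 after the median of like signals was taken from each. By the brightest probe sets the 2 genes differed in log2 ratio by 1.28, and by 0.60 after quantile normalization or 0.64 after loess.

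**Figure D2:**
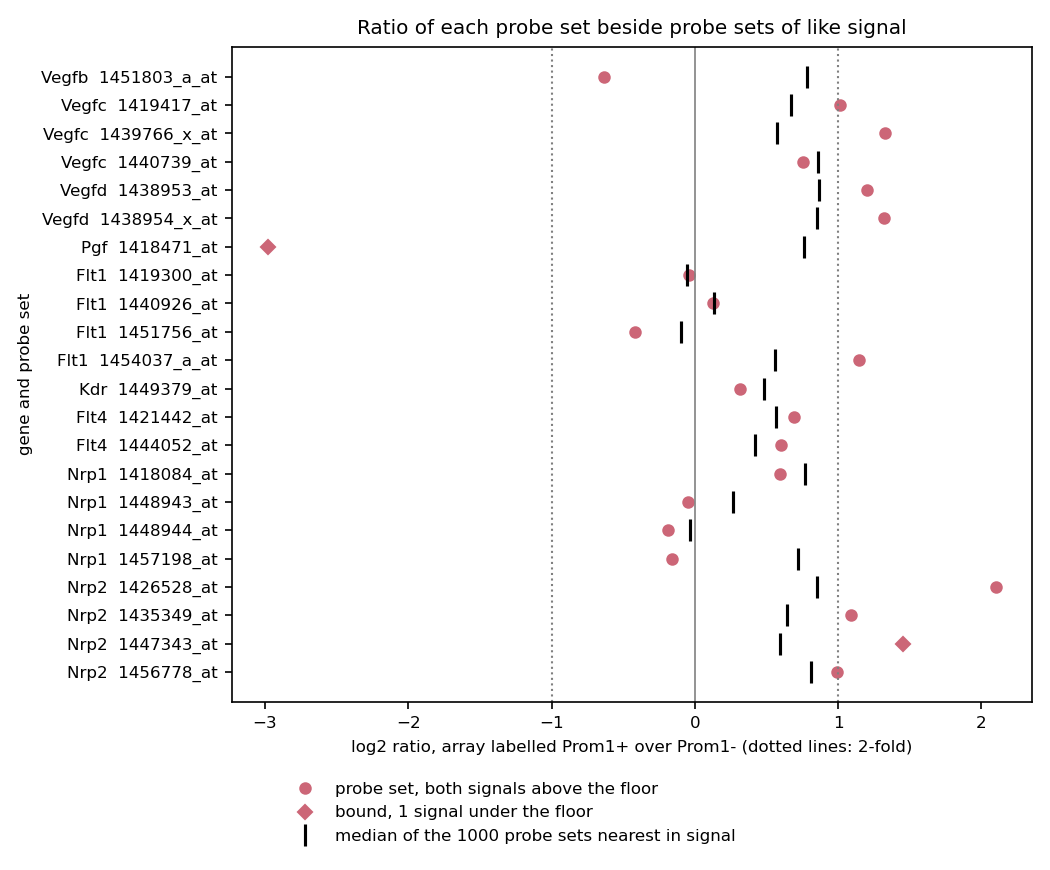
Log2 ratio of the array labelled Prom1+ over the array labelled Prom1- for the 22 probe sets above the floor on at least 1 array (circles, or diamonds for the 2 bounds), with the median ratio of the 1000 probe sets of most similar signal as a black bar and 2-fold as dotted lines. The 4 Nrp2 points lie right of their bars and the 4 Nrp1 points left of theirs. Pgf stands apart on the left, and Vegfb, at a log2 ratio of -0.64, lies left of its bar.

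By probe set, 8 of the 22 measured were at least 2-fold higher, where 26.4% of all probe sets above the floor were, and 1 was at least 2-fold lower, where 5.16% were. Of the 22, 12 lay above the median of like signals. After loess correction of the shift with signal, 1 of the 22 was still at least 2-fold higher (Nrp2, 1426528_at, at a log2 ratio of 1.33), and 2 were at least 2-fold lower, those of Pgf and Vegfb. By gene, 0 of the 9 were then higher, where 4.98% of all genes were, and 2 were lower, where 8.29% of all were.

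By their brightest probe sets, 5 genes kept their direction however the arrays were scaled. The third Vegfc probe set (1440739_at) did not, at a log2 ratio of -0.055 after loess. Over the deposited scale and 5 alternatives, the log2 ratio of Vegfc ran from 0.79 to 2.38, that of Vegfd from 0.55 to 2.38, that of Nrp2 from 0.51 to 2.15 and that of Flt4 from 0.06 to 1.66, while that of Pgf ran from -3.39 to -2.07. Vegfb, Flt1 and Nrp1 were below 0 under all of these except with the hybridization controls set equal. That setting raised the median log2 ratio of all genes from 0.66 to 1.67 and put 80.4% of them at least 2-fold higher. Kdr was above 0 on the deposited scale and with the pan-endothelial genes or the hybridization controls set equal, and below 0 with a common trimmed mean, quantile normalization and loess. Between genes above the floor on both arrays, only quantile normalization and loess can change the order, and after both Vegfc still had the highest and Pgf the lowest ratio of the 9. The 2-fold calls of Vegfc and Vegfd held on the deposited scale, after equalizing the pan-endothelial genes and after equalizing the hybridization controls, and that of Nrp2 on the first and the last of these. None of the 3 reached 2-fold with a common trimmed mean, quantile normalization or loess.

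**Figure D3:**
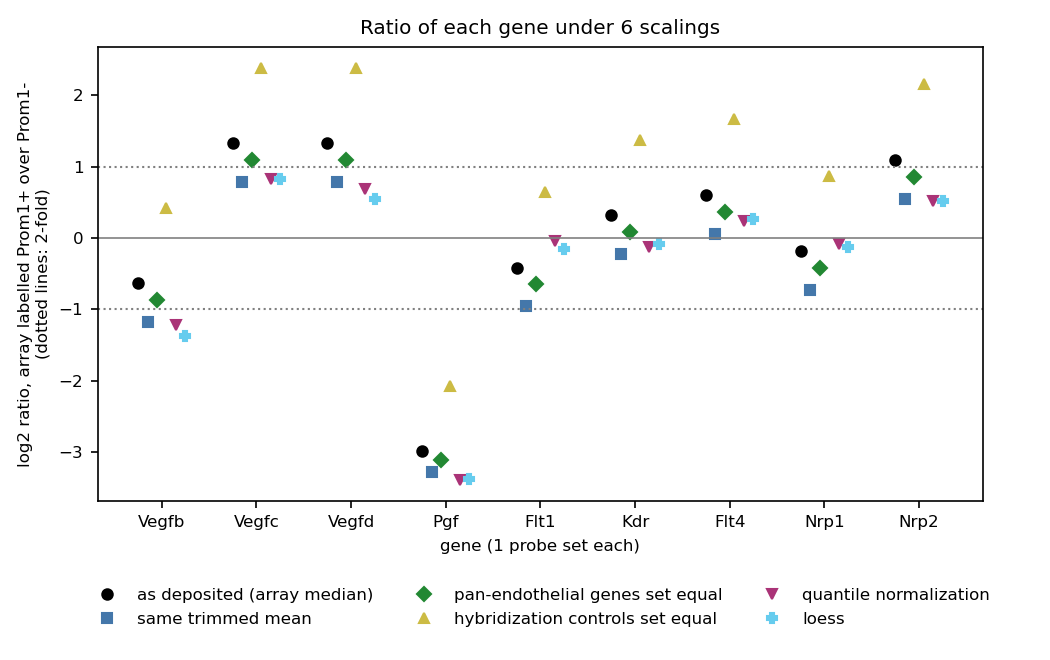
Log2 ratio of the array labelled Prom1+ over the array labelled Prom1- for the 9 genes above the floor, 1 point for each of the 6 scalings, with 2-fold as dotted lines. Vegfc, Vegfd, Flt4 and Nrp2 lie above 0 throughout and Pgf below -2, the points of Kdr fall on both sides of 0, and those of Vegfb, Flt1 and Nrp1 lie above 0 only with the hybridization controls set equal.

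Other genes of the pathway were taken from 6 lists, whose counts are to be read against the 28.2% of all genes that were at least 2-fold higher and the 4.77% that were at least 2-fold lower. Of enzymes that cut VEGF-C and VEGF-D to their active forms and their cofactors, Furin differed little, at 76.5 and 85.0 array medians in the arrays labelled Prom1- and Prom1+. The related convertase Pcsk7 was 3.15-fold higher, at 3.98 and 12.5, beside 1.76-fold for like signals, and Pcsk5 at least 2.04-fold higher, at 1.31 and 3.41, beside 1.48-fold. The protease Adamts3 and its cofactor Ccbe1 were under the floor on both arrays, so that 2 of the 3 measured genes of this list were higher, against 28.2% of all genes. Among the neighbors of Pcsk7 and Pcsk5 in signal, 40.4% and 35.0% were at least 2-fold higher. The Pcsk5 value came from 1437339_s_at. Without probe sets with _x_at or _s_at in their names 1 gene of this list was higher, and after loess 0 were.

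Of 16 partners of the receptors, 4 were higher and 2 lower by 2-fold or more in the array labelled Prom1+, with a median log2 ratio of 0.29. Of all genes 28.2% were higher, so the count of higher partners is near the background. The phosphatase Ptprb, which restrains VEGFR-2 at junctions, had 170 and 157 array medians. The phosphatase Ptprj was 2.49-fold higher, at 8.26 and 20.6, and Gipc1, the adaptor that binds the tail of Nrp1, was 2.44-fold higher, at 8.03 and 19.6, each beside 1.82-fold for like signals, of which 38.3% and 38.4% were at least 2-fold higher. The lipoprotein receptor Vldlr had 19.6 array medians and was under the floor in the array labelled Prom1+, at least 11.7-fold lower. The proteoglycan Gpc1 was at least 2.03-fold lower. Beside Vldlr and Gpc1, like signals were 1.73-fold and 1.47-fold higher. The Vldlr value came from 1434465_x_at, and without probe sets with _x_at or _s_at in their names 1 partner was lower. Iqgap1 and Eng differed by less than 2-fold.

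Of 28 measured genes that relay the signal inside the cell, 7 were at least 2-fold higher, 1 was lower and 20 differed by less, with a median log2 ratio of 0.69, near the 0.66 of all genes. The share of higher genes is again near the 28.2% of all genes, and the share of lower ones is not above the 4.77% of all. Plcg1, the phospholipase docked to VEGFR-2, had 159 and 129 array medians, and Cdc42 and Hspb1 were also within 2-fold. The adaptor Shb was 3.39-fold higher, at 3.54 and 12.0, and the exchange factor Vav2 2.51-fold higher, at 7.43 and 18.6. The protein kinase C gene Prkca was at least 3.21-fold lower, where like signals were 1.49-fold higher. Shb and Vav2 lie at signals where the median ratio was 1.76-fold and 1.84-fold.

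Among 12 measured genes that VEGF is known to induce in endothelium, 3 were at least 2-fold higher, 1 lower and 8 within 2-fold, with a median log2 ratio of 0.36. The count of higher genes is near the background of 28.2%. Rcan1, an inhibitor of calcineurin, was 2.38-fold higher, at 19.9 and 47.5 array medians, beside 1.68-fold for like signals, and the urokinase receptor Plaur 2.87-fold higher, at 4.35 and 12.5, beside 1.76-fold, with 38.5% of its neighbors at least 2-fold higher too. Plvap, the diaphragm protein of fenestrated endothelium, had 4.81 array medians and was under the floor in the array labelled Prom1+, at least 2.87-fold lower, where like signals were 1.44-fold higher. The immediate early gene Nr4a1 was 1.04-fold higher, at 63.5 and 66.2, and Ets1 and Adamts1 were within 2-fold. Esm1, Apln and Plau were under the floor on both arrays.

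Of 6 measured genes of oxygen sensing, which sets the transcription of Vegfa, 1 was at least 2-fold higher, where 28.2% of all genes were. This was Vhl, the ubiquitin ligase subunit that marks hypoxia-inducible factors for breakdown, at 21.9 and 55.4 array medians, 2.53-fold beside 1.64-fold for like signals. The factors Hif1a, at 71.0 and 96.2, and Epas1, at 263 and 191, were within 2-fold, as was the prolyl hydroxylase Egln1, at 46.4 and 83.4. None of the 6 measured class 3 semaphorins and plexins, which compete for or act with neuropilins, differed by 2-fold. Sema3c had 95.6 and 101 array medians, Sema3g 63.3 and 91.6, and Plxna2 34.1 and 51.7.

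**Figure D4:**
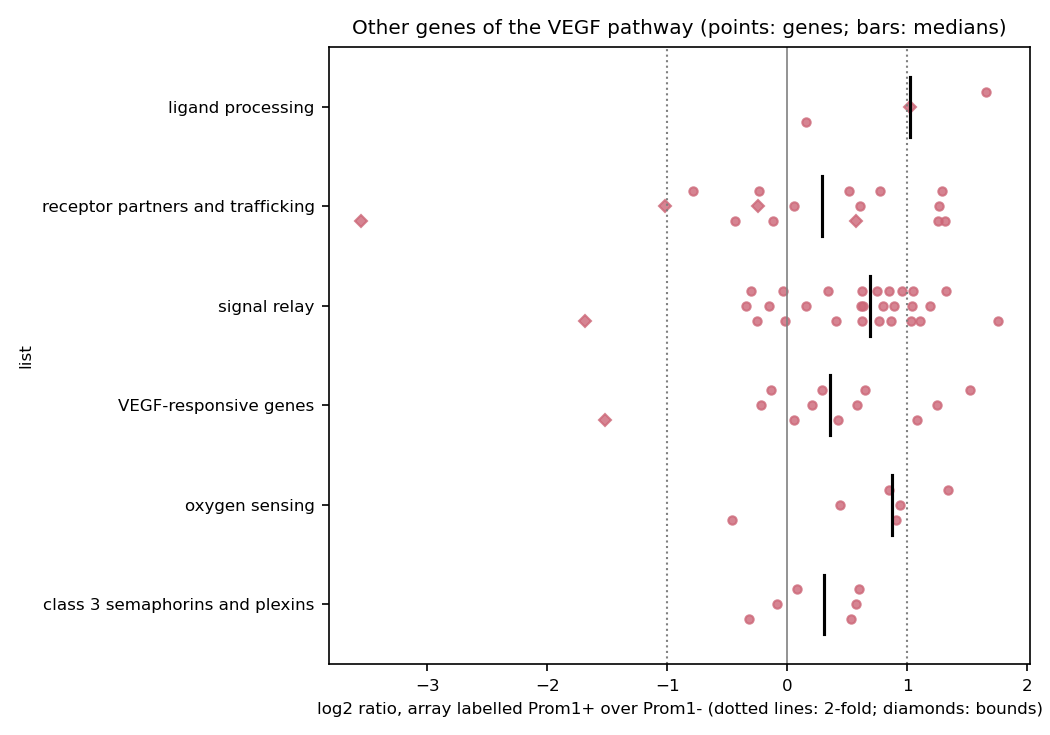
Log2 ratio of the array labelled Prom1+ over the array labelled Prom1- for the genes of 6 lists of the VEGF pathway, 1 point per gene above the floor on at least 1 array (diamonds are bounds), with list medians as bars and 2-fold as dotted lines. List medians lie between 0.29 and 1.03, and Vldlr, read by an _x_at probe set, is the point farthest to the left.

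Markers of other cells of the brain vessel wall differed between the same arrays. Of 10 mural markers 9 were at least 2-fold lower in the array labelled Prom1+, where 4.77% of all genes were, with a median log2 ratio of -1.71 and summed signals of 1043 and 352 array medians in the arrays labelled Prom1- and Prom1+. Among them Acta2 had 295 and 81.6, Tagln 206 and 43.6, Rgs5 206 and 95.9, and Des 16.0 and 2.77. None of the 10 was under the floor on both arrays. Of 8 measured markers of microglia and macrophages 7 were at least 2-fold lower, with C1qb at 78.7 and 31.8, Csf1r at 71.5 and 33.6, C1qc 3.08-fold lower, C1qa 3.13-fold lower and summed signals of 218 and 90.7 over the 9 genes of the list. Of 5 measured fibroblast markers 3 were at least 2-fold lower. The sums over the 6 genes of that list were 328 and 48.2, mostly Ptgds (305 and 40.3), while Col1a2 was 5.49-fold and Dcn 3.94-fold lower. The measured fibroblast marker Pdgfra went the other way, at 0.687, under the floor, and 2.80, at least 1.67-fold higher. Col1a1 lay near the floor, at 1.76 and 0.766, and was at least 1.05-fold lower. In a sorted bulk population fewer cells of a type and less RNA per cell cannot be told apart. The part of these cells in the lower Pgf and Vegfb, or in any other value of the VEGF genes, was not tested.

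Of 5 measured astrocyte markers 4 had the lower signal in the array labelled Prom1+ and 1, S100b, was past 2-fold, at 5.11-fold, with a median log2 ratio of -0.28. The sums over all 7 genes of the astrocyte list, 110.2 and 110.0 array medians, were near each other through Gja1 alone, at 67.0 and 84.5. Slc1a3 had 18.5 and 17.7, and Gfap and Aqp4 were under the floor on both arrays. Oligodendrocyte markers went both ways, with Mbp 2.28-fold lower, Cnp 2.84-fold higher and Cldn11 at 3.99 and 2.57. The measured markers of choroid plexus (Ttr and Folr1) were both at least 2-fold lower, and of 3 measured neuronal markers 2 were, Syt1 at least 6.09-fold and Snap25 at least 2.92-fold, while Nefl had 2.60 array medians in the array labelled Prom1- and was under the floor in the other.

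**Figure D5:**
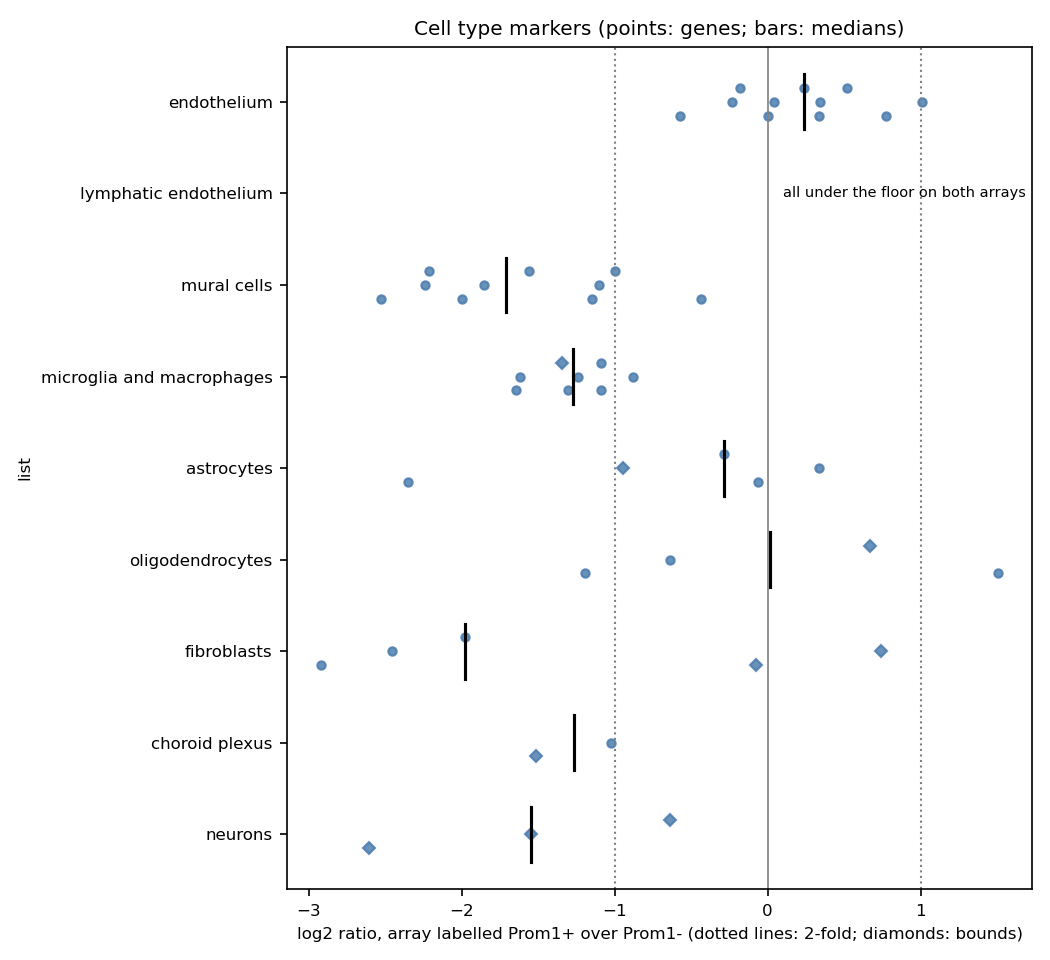
Log2 ratio of the array labelled Prom1+ over the array labelled Prom1- for markers of 9 cell types, 1 point per gene above the floor on at least 1 array (diamonds are bounds), with list medians as bars and 2-fold as dotted lines. Endothelial markers lie around 0.24, mural markers around -1.71, and the 3 lymphatic markers were under the floor on both arrays.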

How the data were processed

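RNA of each sorted population was amplified, labeled with biotin and hybridized to 1 array by the authors, who scaled the MAS5 signals (target 500) and then used GeneSpring for normalization. Each of the deposited log2 values is relative to its own array's median, with a median of 0 in both columns and a lowest value of -6.64. Software versions were not given in the sources used here. The number of arrays limits the precision.

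Signals were taken back to array medians. The floor, 100 on the target scale, became 1.67 array medians by way of the arrays' 2% trimmed means, averaged. A difference was counted at 2-fold between floored signals. Where 1 of the signals was under the floor the fold is a bound, and where both were none is given. Gene names came from the platform annotation, which gives 34958 of 45101 probe sets a single gene, and were updated through a GRCm38.p6 gene table, which held 34754 of them. Named genes were all members and, from each list, the 3 brightest and up to 2 with the largest difference each way past 2-fold. Other genes given were added after their values were seen. Members and lists were chosen with earlier results of these data known. Of the list genes, 8 had no probe set of their own in the annotation and were not analysed here.

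Other settings tried were a floor of 50, of 200 or none, folds of 1.5 and 3, a common trimmed mean, the endothelial markers or the 9 hybridization controls set equal, quantile normalization, loess with a span of 0.2, the mean over probe sets, and only probe sets without _x_at or _s_at in their names. The rules were tested on simulated data. Work was done in Python 3.11.15 with statsmodels 0.14.6, scipy 1.17.1, pandas 2.3.3, numpy 2.4.6 and, for plots, matplotlib 3.10.9.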

Additional observations from a re-analysis of the deposited data

How the results depend on the processing

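The count of VEGF genes higher by 2-fold or more in the array labelled Prom1+, 3 as reported, was 0 with a fold of 3, with a common trimmed mean, with quantile normalization and with loess, and 5 once the hybridization controls were equal. The count of lower genes, 1 as reported, was 2 with a fold of 1.5, a common trimmed mean, quantile normalization and loess. The median log2 ratio of the family, 0.32 as reported, was -0.22 with a common trimmed mean and 1.37 once the hybridization controls were equal. The other alternatives left both counts within 1.5 times and the median within the SD of 0.54. No VEGF gene called at 2-fold changed sign under any of the alternatives. The counts of the 6 other pathway lists depended on the scaling too. After loess each list had 0 genes at least 2-fold higher. Over all settings the count of higher genes ran from 0 to 23 for signal relay, 0 to 8 for receptor partners and 0 to 9 for VEGF-responsive genes. The median log2 ratio of all genes, 0.66 as reported, moved with the scaling as well. It fell to 0.12 with a common trimmed mean and to 0.43 when the pan-endothelial genes were equalized. Equal hybridization controls raised it to 1.67. Quantile normalization brought it to 0.09 and loess to 0.06. Over these scalings the share of all genes at least 2-fold higher ran from 4.98% to 80.4%, beside 28.2% as reported. The share at least 2-fold lower ran from 1.48% to 8.29%, beside 4.77% as reported. No paired analysis was possible because each population has 1 array. For the same reason no array could be left out. Signals near the floor, as for Vegfd, Pgf, Vegfb and 3 of the Nrp2 probe sets, limit what their folds can show.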
